A study of Mus musculus with 14 samples.

Results

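Zscan4c, Zscan4d, Zscan4f, Zfp352, Tcstv1 and Tcstv3, which mark the 2-cell-like state of mouse embryonic stem cells (ESCs), were followed together with Dppa2 and Dppa4, regulators of that state. The 8 genes were chosen by name, and 6 of them are in the RNA-seq table of 22376 genes, where both Tcstv genes are missing. RNA-seq was done on 3 libraries of untreated Drosha fl/fl CreERT2 ESCs (control) and on 3 libraries of the same line that had been given 100 nM 4-hydroxytamoxifen for 72 h and kept without it for a further 48 h (Drosha-deficient). Degradome-seq, which reads the 5′ monophosphate ends of cleaved polyA RNA, was done on 2 control and 2 Drosha-deficient libraries of that line. It was also done on 2 control (GFP) and 2 Dicer-deficient (GFP-Cre) libraries of a Dicer fl/fl line, sorted for GFP at 3 days after retroviral transduction and cultured for 2 more days. In the Drosha line the deleted cells alone received the drug, so that deletion and drug cannot be told apart. All cells were grown with LIF on inactivated mouse embryonic fibroblasts, and the sources do not say whether replicates were separate cultures, so the spread between them may be technical.

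In cultures of ESCs, a few cells at any time enter a transient state in which they transcribe genes of the 2-cell embryo, where the mouse genome is first switched on. Zscan4 proteins are zinc finger proteins with a SCAN domain that act at telomeres, Zfp352 is a zinc finger gene with no introns in its coding part, and the Tcstv genes are short genes of chromosome 13. Dppa2 and Dppa4 are SAP domain proteins that bind each other, are made by most ESCs and act upstream of the transcription factor Dux, which in turn switches on Zscan4 and the retrotransposon MERVL. The state is held down by chromatin repressors such as Trim28, Setdb1, Kdm1a and the histone chaperone CAF-1 (Chaf1a, Chaf1b), and the microRNA miR-34a has been tied to its restraint.

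The Zscan4 members differ at few bases, which bears on how RNA-seq reads can be assigned to them, so the stretch of coding sequence where they differ most is shown first. The coding sequences are each 1518 bases long. Zscan4c and Zscan4f differ at 6 positions (99.6% identical), whereas Zscan4d differs from each of them at 35 (97.7% identical). Below are coding bases 695 to 724 in GRCm38.p6 (RefSeq genome), with capitals at the 4 positions that are not the same in all 3 genes. Zscan4c lies on the plus strand at chr7:11009170-11009199, Zscan4d on the minus strand at chr7:11162718-11162747 and Zscan4f on the plus strand at chr7:11401363-11401392.
Zscan4c: AtgGtgccagaagagcaagtcaaggcaCcC
Zscan4d: TtgAtgccagaagagcaagtcaaggcaAcT
Zscan4f: AtgGtgccagaagagcaagtcaaggcaCcC
Even here, Zscan4c and Zscan4f have the same 30 bases and Zscan4d stands apart from both.

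The longest transcript of each gene was then cut into all windows of 100 bases, the length of the RNA-seq reads, and each window was sought on both strands of the genome and in the transcripts of other genes. Of the windows of Zscan4f, 10.4% occurred once (180 of 1730). The share was 27.2% for Zscan4c (592 of 2177) and 70.4% for Zscan4d (1530 of 2173). Windows of these 3 genes were found up to 8 times in the genome. Among their neighbours in the cluster on chromosome 7, Zscan4a had 60.9% of its windows found once, Zscan4b 21.3% and Zscan4e 15.9%. Outside the Zscan4 family the shares were higher, from 73.2% in Dppa2 and 74.1% in Tcstv1 to 82.7% in Dppa4, 92.2% in Tcstv3 and 99.4% in Zfp352. The counter used for RNA-seq is not given in the sources used here and whether reads that fit several genes were dropped or shared out is not known. The levels of Zscan4c and Zscan4f are therefore uncertain.

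In GRCm38 (GENCODE vM21) the members are all annotated as protein-coding genes and lie in 4 places. On chromosome 7, Zscan4c spans 11005745 to 11010547 on the plus strand, Zscan4d 11161374 to 11166159 on the minus strand and Zscan4f 11397915 to 11402318 on the plus strand. Dppa4 (48283733 to 48294237) and Dppa2 (48303908 to 48319723) are neighbours on the plus strand of chromosome 16. Zfp352 is on the plus strand of chromosome 4 from 90218820 to 90225702. On chromosome 13, Tcstv1 spans 119893388 to 119894785 on the minus strand and Tcstv3 120316878 to 120318178 on the plus strand.

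**Figure D1:**
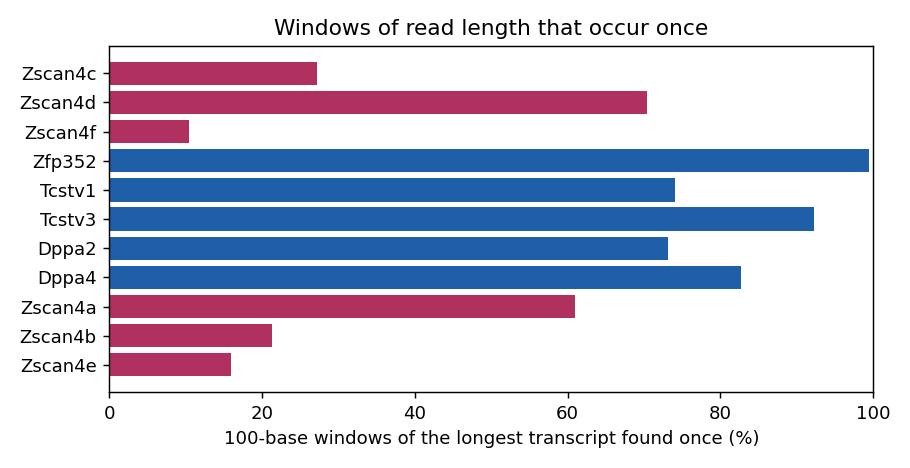
Percentage of the 100-base windows of the longest GENCODE transcript that occur once in GRCm38.p6 and in no other gene (x axis), for the 8 genes and for Zscan4a, Zscan4b and Zscan4e (y axis; bars of the Zscan4 family in red, others in blue). Zscan4f has the lowest share, 10.4%, and Zfp352 the highest, 99.4%.

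RNA-seq was deposited as 1 mean per gene over all 6 libraries, in log2 CPM (counts scaled to the library's total), beside columns of the authors' own comparison, which are not used here. Levels below are therefore means over control and Drosha-deficient cells together, with no spread and no test, and do not tell in which group a gene was read. In bulk RNA, fewer cells in the 2-cell-like state and less RNA per such cell cannot be told apart. Drosha could not be checked library by library for the same reason, and the Dicer line had no RNA-seq in which to check Dicer1. The paper reports by qRT-PCR that Drosha mRNA and canonical miRNAs were lost in the Drosha line. It also reports a loss of miRNA expression in the Dicer line. Here the deletions rest on those reports and on the labels. Pluripotency markers were high in these libraries (10 of 10 in the table, from 6.14 to 10.19 log2 CPM). Of the genes of feeder fibroblasts, all 10 were in the table, from −1.94 (S100a4) to 11.20 (Fn1, which ESCs can also express), and their part in the levels was not tested. Primitive endoderm markers lay between −2.07 and 1.87 (6 of 6 in the table). Of 6 trophectoderm markers, 4 were in the table, from −1.45 to 6.70, without Cdx2 and Elf5.

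Genes that mark the 2-cell-like state lay near the bottom of the table and their regulators in its middle or above. Zscan4d, at −0.96 log2 CPM, was the highest of the state's own genes and was above 27.4% of all genes. Zscan4c had a mean of −1.94 (above 17.7% of genes), and Zscan4f one of −2.63 (above 7.39%). Zfp352 was lowest, at −2.69 (above 7.15%), where the table is crowded, since 781 genes lie within 0.1 of it. The lowest value of any gene in the table is −3.25. edgeR adds a small prior count before it averages, which lifts and levels the values of genes with few reads, so that differences at this end are understated. All 4 genes were below 1 CPM, with values of 0.513 CPM for Zscan4d, 0.260 for Zscan4c, 0.162 for Zscan4f and 0.155 for Zfp352. The 9 Zscan4 genes and pseudogenes in the table summed to 2.44 CPM, of which the 3 members made up 0.934 CPM. Both sums hold the prior count of each gene and so overstate the reads.

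Dppa4 had a mean of 5.37 log2 CPM, or 41.4 CPM, above 75.0% of genes, and Dppa2 one of 3.35 log2 CPM, or 10.2 CPM, above 56.4% of genes. Divided by the length of all exons, Dppa4 had 4.64 log2 CPM per kb and Dppa2 2.06, a difference of 2.58 on the log2 scale. Dppa2 was in turn above Zscan4d, at −2.15, by 4.21. The steps below that were small, 0.98 from Zscan4d to Zscan4c (−3.13), 0.47 to Zscan4f (−3.60) and 0.28 to Zfp352 (−3.88). With no value per library, none of these steps can be set against replicate error.

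The order within the Zscan4 family turned over when length was counted another way. Divided by the number of windows found once in place of all exon bases, Zscan4f had −0.16 log2 CPM per kb, Zscan4c −1.19 and Zscan4d −1.58, so that the gene with the fewest such windows came first. The shift was 3.44 for Zscan4f and 1.94 for Zscan4c, against 0.57 for Zscan4d, 0.54 for Dppa4, 0.51 for Dppa2 and 0.07 for Zfp352. This scaling would be the right one only if reads that fit several places had been left out, and was chosen after the data were seen. The means also hold edgeR's prior count, which does not shrink with the number of windows. It therefore weighs most on Zscan4f, which has the fewest, and its part in this order was not tested. Under both scalings Dppa4 was first, Dppa2 next and Zfp352 last.

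**Figure D2:**
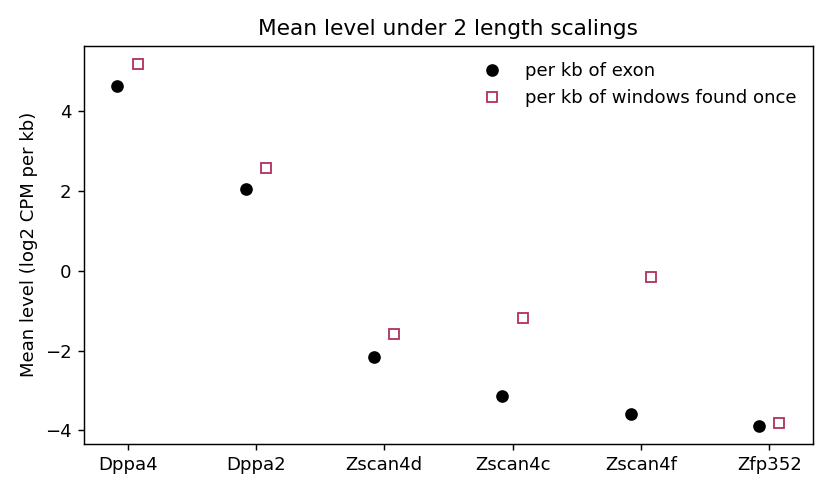
Mean level of the 6 genes in the RNA-seq table (y axis, log2 CPM per kb, mean over 6 libraries), divided by the length of all exons (black circles) or by the number of 100-base windows found once (open red squares). The Zscan4 members run from −2.15 down to −3.60 by exon length and from −1.58 up to −0.16 by windows found once.

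Other genes of the state, from a list of 30, also had low means. Of these, 15 were in the table, with means from −2.83 to −1.32 log2 CPM and a median of −2.20, and 0 of the 15 were above the median of all genes (2.34). The deubiquitinase genes Usp17le (−1.32) and Usp17la (−1.40) and the Zscan4 pseudogene Zscan4a (−1.40) were the highest of them. The list of activators holds 7 names. Duxf3 was not in the table, and Dux had no entry in the annotation under that name, so the names need not stand for 7 separate genes. The other 5 ranged from 2.42 (Gata2) to 7.62 (Trp53) log2 CPM, with Nelfa at 6.47 and Dppa3 at 5.37. All 25 repressors were in the table, from 2.01 (Sumo2) to 10.86 (Ncl), with a median of 6.98, and 24 of them were above the median of all genes. Setdb1 had 6.98, Kdm1a 7.75, Chaf1a 6.94 and Trim28 9.64 log2 CPM. All 4 were above Dppa4 in log2 CPM. Per kb of exon, Trim28 (7.58) and Kdm1a (5.38) were above Dppa4 (4.64), and Setdb1 (4.21) and Chaf1a (3.79) below it.

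**Figure D3:**
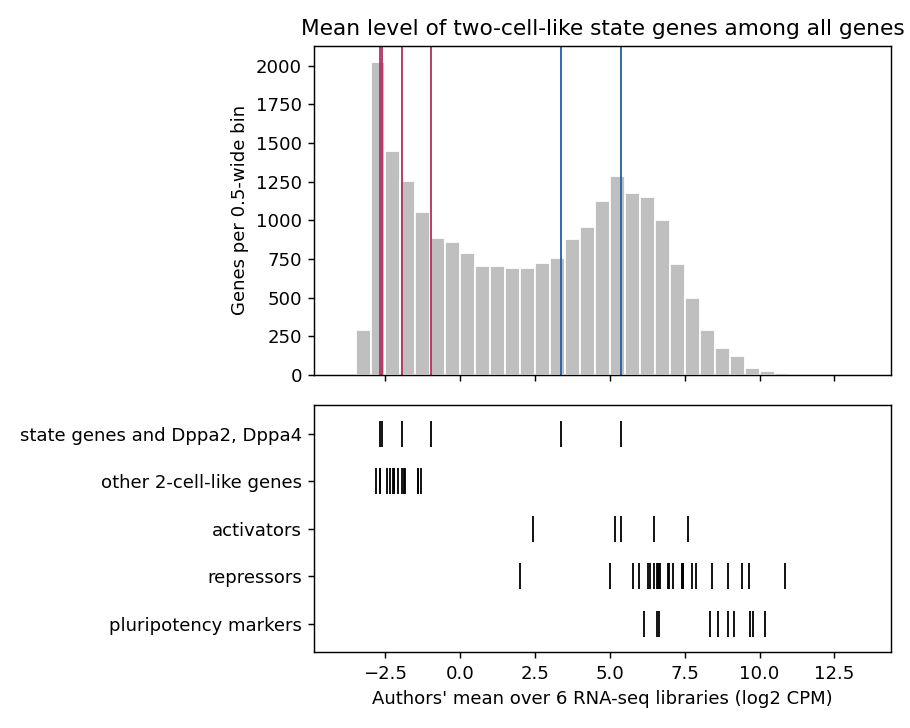
Upper panel, number of genes per bin of 0.5 (y axis) by mean level over the 6 RNA-seq libraries (x axis, log2 CPM) for all 22376 genes, with lines at Zfp352, Zscan4f, Zscan4c and Zscan4d (red, from −2.69 to −0.96) and at Dppa2 and Dppa4 (blue, 3.35 and 5.37). Lower panel, each gene of 5 lists as 1 tick on the same axis, with the other 2-cell-like genes at −1.32 and below and the repressors at 2.01 and above.

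Cleavage sites in the same genes were sought in the Degradome-seq tables. The files list, with their RPM (reads starting at the site, scaled to the library's mapped reads) in each library, 3919 pile-up sites for the Drosha line and 4666 for the Dicer line. Per the study's methods these were picked in control cells for a stack of read starts like that of a miRNA site. On the strand of the gene, 0 of these sites lay inside the 8 genes in either table, a count that does not cover the opposite strand. Across the 820 kb of the Zscan4 cluster (chromosome 7, 10794242 to 11614112 in GRCm38), with 9 genes and pseudogenes, neither table held a site on either strand. Because the tables list chosen sites only, this does not show that no read started there. Most windows of Zscan4c and Zscan4f also occur more than once, and the part of such repeats in the lack of sites was not tested. At such low levels few genes have a site. Of the protein-coding genes within 0.5 log2 CPM of Zscan4d, 0.473% had a site on their strand in the Drosha table (4 of 845) and 1.54% in the Dicer table (13 of 845), the lowest shares among the 4 low members. For the other 3 they were 1.26% and 2.03% (Zscan4c), 0.998% and 1.81% (Zscan4f), and 0.942% and 1.69% (Zfp352) in the Drosha and Dicer tables. Of those at the level of Dppa4 the shares were 7.01% (164 of 2341) and 7.73% (181 of 2341). For Dppa2 they were 3.43% (45 of 1312) and 4.19% (55 of 1312), and over all 15459 protein-coding genes 6.53% and 8.01%.

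Each site was tested with limma on its log2 RPM, deficient against control (log2FC, deficient minus control), over all sites of its table. A site was called where its FDR was below 0.05 and its log2FC was beyond −1.5 or 1.5. By limma, 0% of the sites of the Dicer table were called decreased and 0% increased, whereas 459 had an unadjusted p-value below 0.05. The paper, which tested raw read counts with edgeR at the same thresholds for decreases, does report sites lost in Dicer-deficient cells. A lack of calls by limma therefore does not show that no site changed in the Dicer line.

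The microRNA gene Mir34a had a site in both tables, on the plus strand of chromosome 4 at 150068539, and its depth can be followed library by library. The products and the site are printed to show where the cut falls. Mature sequences are from RefSeq (GRCm38.p6) with the seed, bases 2 to 8, in capitals, and the site is the plus strand of chr4:150068539-150068568 with the first base of the reads in capitals.
mmu-miR-34a-5p: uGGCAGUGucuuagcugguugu
mmu-miR-34a-3p: aAUCAGCAaguauacugcccu
Mir34a site: Gaagtgctgcacattgttgggccgagaagg
The annotated miR-34a-3p ends at 150068537, so that reads began 2 bases past its last base. These 30 bases occur once in the genome.

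At Mir34a the control libraries of the Drosha line had 9.45 and 8.76 RPM and the Drosha-deficient libraries 1.00 and 2.19 RPM. Both control libraries were well above both deficient libraries, with means of 9.10 ± 0.488 RPM (SD, n = 2) and 1.59 ± 0.841 RPM (SD, n = 2). Its log2FC was −2.53 ± 0.42 (SE) with a limma FDR of 0.000106 over all 3919 sites, and it was called decreased. Decreases were common in that table, where 37.6% of sites were called decreased and 9.57% increased (1473 and 375 sites) and the median log2FC of all sites was −0.93. Listed sites were picked in control cells for stacks like those of miRNA sites, and neither the FDR nor these shares allow for that choice. With libraries centred on their median site, 871 were called decreased and 602 increased, and Mir34a was still called, at −1.94. In the Dicer line, both control libraries had 13.1 RPM, and 5.24 and 4.89 RPM were read in the deficient pair. The groups did not overlap there either. The log2FC was −1.36 ± 0.32 (SE) with a limma FDR of 0.465, so the site missed both thresholds and was not called. The difference between the lines was not tested. The mean level of Mir34a in RNA-seq was −0.42 log2 CPM, above 31.8% of genes. Mir344, the other miRNA gene listed, had no site and was not in the RNA-seq table.

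**Figure D4:**
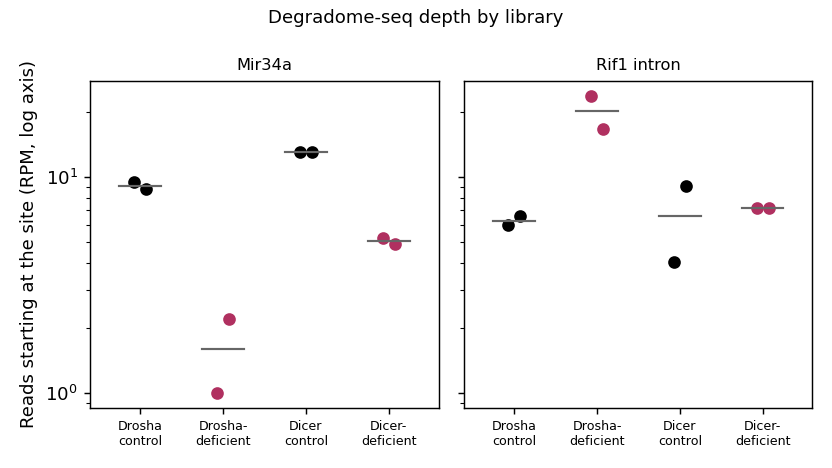
Depth at the Mir34a and Rif1 degradome sites in each library (y axis, reads starting at the site in RPM, log axis), with control libraries in black, deficient libraries in red and a line at the mean of each pair. At Mir34a both deficient pairs lie below their controls, and at the Rif1 intron the Drosha-deficient pair lies above.

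Among the 25 repressors of the state, 4 genes had 5 sites on their own strand in the Drosha table, of which 0 were called decreased and 1 increased, against 37.6% and 9.57% of all sites. The increased site lies in an intron of Rif1, a telomere-binding protein that helps silence the Zscan4 cluster, on the plus strand of chromosome 2 at 52078521. Control libraries had 5.96 and 6.57 RPM there, against 23.7 and 16.6 RPM without Drosha, so that both deficient libraries were above both controls. Its log2FC was 1.65 ± 0.35 (SE) with a limma FDR of 0.000762. Without the first Drosha-deficient library it was 1.39, short of the threshold. The same site had 4.05 and 9.12 RPM in the Dicer line's controls and 7.20 and 7.15 RPM in its deficient pair. There the log2FC was 0.23 ± 0.46 (SE), limma FDR 0.860, within the replicate error.

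The site with the greatest depth in a repressor was at the small nucleolar RNA Snord82 in an intron of Ncl, which encodes nucleolin. Controls of the Drosha line had 4690 and 5980 RPM, and 2270 and 3190 RPM were read without Drosha. The log2FC of −0.98 ± 0.39 (SE), limma FDR 0.0380, did not reach −1.5 and was close to the median of all sites. In the Dicer line it was −0.82 ± 0.38 (SE), FDR 0.525. A site at a small nucleolar RNA in an intron of the chromatin remodeller gene Ep400 went from 38.0 and 22.5 RPM to 10.9 and 9.83 RPM in the Drosha line. Its log2FC was −1.49 (limma FDR 0.00169), just short of the threshold, and it was called without the second control library (−1.86) or the first deficient library (−1.56). Sites in an exon of Ncl (−0.34, limma FDR 0.618) and in an intron of the Polycomb gene Pcgf6 (0.96, limma FDR 0.0589) were not called, although with centred libraries the latter was 1.55 and called, and the 30 bases at Pcgf6 occur 885 times in the genome. In the Dicer table, 8 repressors had 11 sites on their strand and 0 were called by limma in either direction. These included a site in an intron of Chaf1a, with 7.32 and 6.35 RPM in controls against 11.7 and 8.37 RPM without Dicer (log2FC 0.53, limma FDR 0.592). They also included one in an intron of Smchd1, with 4.14 and 3.93 RPM against 2.67 and 1.99 RPM (−0.78, limma FDR 0.542), whose 30 bases occur 561 times in the genome.

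On the strand opposite to the gene, 5 repressors had 7 sites in the Drosha table, and 6 were called decreased, against 37.6% of all sites of that table. Such decreases were not limited to repressors. Of opposite-strand sites in pluripotency markers 1 of 4 was called decreased (Klf4, −2.12), and in feeder fibroblast markers 1 of 1 (Fn1, −1.90). The share among all opposite-strand sites was not worked out. For the Dicer line there were also 7 opposite-strand sites in 5 repressors, of which 0 were called by limma. A pair of these, chosen after their values were seen, is given. In Dnmt1, the maintenance DNA methyltransferase, the site at 20927109 of chromosome 9 went from 65.7 and 39.1 RPM to 8.97 and 10.1 RPM (log2FC −2.40, limma FDR 3.59e-05), with no overlap. In Trim28, the co-repressor that recruits Setdb1, the site at 13028082 of chromosome 7 went from 6.69 and 6.95 RPM to 1.90 and 1.18 RPM (−2.11, limma FDR 0.000319). In the Dicer line neither was called, with 18.4 and 6.67 RPM against 42.1 and 9.50 RPM at Dnmt1 (0.84, FDR 0.690) and 5.56 and 1.02 RPM against 6.89 and 2.38 RPM at Trim28 (0.73, FDR 0.745). The last bases of the RNA linker match the reference directly upstream of the Trim28 site over 5 bases and of the Dnmt1 site over 2 bases, against 0 bases at Mir34a. Of the repressors' other opposite-strand sites in the Drosha line, the match was 5 bases at Pias4 and 2 at the other Dnmt1 site. It was 4 bases at the other Trim28 site, at Uhrf1 and at Ep400, the site not called. Among all listed sites of that line, a fixed number of the linker's final bases lay directly upstream of 31.3% on the plus and 30.4% on the minus strand. That number is above the 2 bases matched at the Dnmt1 sites, which do not count towards these shares. With positions shifted by 1 base either way, the share was 2.12% or less. The part of such matches in these values was not tested. Of the other genes of the state, the 27 found in the annotation held 0 sites in either table, and so did the 6 activators found there.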

How the data were processed

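The members and gene lists were chosen with earlier results of these data known. Per the labels and the paper's methods, the authors trimmed Degradome-seq reads with Trimmomatic 0.38.0, aligned them to GRCm38 with STAR and deposited RPM of read starts per library at pile-up sites. RNA-seq reads were aligned with STAR and analysed with edgeR, and the authors deposited 1 mean log2 CPM per gene beside log2 fold changes, F statistics, p-values and FDR. These comparison columns, and those of the site tables, were not used. Per the methods, pile-up sites were picked in both control libraries with a classifier trained on miRNA sites, but the files list 8 sites of the Drosha table and 11 of the Dicer table at 0 RPM in a control library, so the listed sites need not all meet that rule. The RNA-seq counter is not given in the sources used here.

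RPM plus 0.1 was put on a log2 scale and tested with limma 3.58.1 in R 4.3.3 (empirical Bayes with a mean-variance trend, two-sided, deficient minus control, Benjamini-Hochberg over all sites of a table). Sites were called at FDR below 0.05 with log2FC beyond −1.5 or 1.5. A pseudocount understates changes at low depth. The deposited site tables do not state read totals, and read counts were not worked back from the RPM values. Depth per library and counting intervals are therefore not given, and no count test was run. A site that the naming rule covers is not reported here. Named were all 8 genes, every other site in a member or within 5 kb of it, genes of the lists, and for the lists sites in the gene body, at most the 5 deepest on the gene's strand where there were over 10. Sites opposite to the repressors, Klf4 and Fn1 were named after their values were seen. Exon lengths and positions are from GENCODE vM21 (GRCm38), and 22353 of 22376 genes had a length. Reads of 100 bases set the window size. On simulated data with 200 sites changed by 3 on the log2 scale, the Drosha comparison recovered 200 of 200 among 3919 sites. The Dicer comparison recovered 167 of 200 among 4666 sites. False calls numbered 7 and 11. Whether the simulated noise was like that of the real libraries was not tested. These counts therefore do not give the power or error rate of the real tests and do not bear on the lack of calls in the Dicer line. Python 3.11.15, numpy 2.4.6, pandas 2.3.3 and scipy 1.17.1 were used. Alternatives were a pseudocount of 1 RPM, a minimum mean of 0.5 RPM, centring, a replicate block, leaving out each library, and other lengths or gene sets for the levels.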

Additional observations from a re-analysis of the deposited data

How the results depend on the processing

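The Drosha comparison called 1848 of 3919 sites and the Dicer comparison 0 of 4666. A pseudocount of 1 RPM lowered the Drosha count to 813, and leaving out 1 library at a time gave 1307 to 1802. In the Dicer table, a replicate block, which treats libraries of equal number as pairs, called 186 sites (67 decreased and 119 increased), and leaving out 1 library gave 0 to 14, the 14 without the second Dicer-deficient library. A fit that leaves out a library assumes that the lone sample of its group varies like the other group. The labels do not say that equal numbers mark a shared culture, and deviations of equally numbered libraries had a correlation of 0.132 over sites in the Drosha table and 0.527 in the Dicer table. With the block the Drosha count was 1850, Mir34a stayed at −2.53 and was called in the Drosha line, and it had an FDR of 0.0272 at −1.36 in the Dicer line, short of the fold change threshold.

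Mir34a kept its direction in both lines and its call in the Drosha line under all alternatives run, between −3.06 and −2.01 without 1 library in the Drosha line and between −1.40 and −1.31 in the Dicer line. Centring libraries on their median site gave −1.94 in the Drosha line and moved the median of all its sites from −0.93 to −0.34. The alternatives were followed for Mir34a and for repressor sites on the gene's own strand, not for opposite-strand sites. Among the sites followed, changes of sign were limited to sites that were not called. They were the Ncl exon site in the Drosha line (0.25 when centred, 0.28 without the second deficient library, and −1.06 to 0.39 over libraries left out), the Trim28 intron site in the Dicer line (−0.50 to 0.17) and the Rif1 site in the Dicer line (−0.34 to 0.81). The median level of the 6 genes was −2.64 log2 CPM per kb by exon length and by the longest transcript, and −0.67 by windows found once, which was chosen after seeing the data. The median share of genes below them fell from 22.6% to 11.6% among protein-coding genes only. No count of reads per library limits these levels, as the RNA-seq depth is not in the table.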
